A study of Homo sapiens with 6 samples.

Results

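The genes described here encode the aminoacyl-tRNA synthetases, the enzymes that join each amino acid to its transfer RNA (tRNA). They were chosen by name, as every row of the deposited array file whose gene symbol is 1 letter followed by ARS, with or without a suffix for a paralogue or subunit, together with the row of the joint glutamyl-prolyl enzyme. The 34 genes described stood in 36 rows, out of 25438 rows that carry a gene symbol and 25233 genes. Of the 34, 18 encode enzymes of the cytosol (AARS1, CARS1, EPRS1, FARSA, FARSB, HARS1, IARS1, LARS1, MARS1, NARS1, QARS1, RARS1, SARS1, TARS1, TARS3, VARS1, WARS1 and YARS1), 14 encode mitochondrial enzymes (AARS2, FARS2, HARS2, IARS2, LARS2, MARS2, NARS2, PARS2, RARS2, SARS2, TARS2, VARS2, WARS2 and YARS2) and 2 (GARS1 and KARS1) serve both compartments. The cells were A375, an established human melanoma line, and their total RNA was hybridised to Illumina bead arrays. One group of 3 arrays (LEF25) came from cells given 25 µM leflunomide for 3 days, and the other group of 3 (DMSO) from cells kept with the solvent DMSO for the same 3 days. The labels name no genetic change in either group. Whether the 3 arrays of a group stand for separate cultures is not said, so the spread behind each p-value is that of these arrays and may be technical.

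Each synthetase recognises one amino acid and the tRNAs that carry it, and the charged tRNAs feed the ribosome. The cytosol and the mitochondrion have their own sets of enzymes, mostly from separate nuclear genes, and several of the cytosolic enzymes are held in a multi-synthetase complex. Many cytosolic synthetase genes are known targets of ATF4, a transcription factor that is made when amino acids run short, and ATF4 binds C/EBP-ATF elements in their promoters. Leflunomide is known for inhibiting dihydroorotate dehydrogenase, a mitochondrial enzyme of pyrimidine synthesis. The comparison asks how the transcripts of the 3-day treated cells differed from those of the solvent cells.

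Promoter windows from RefSeq on GRCh38.p14, 300 bases long and starting 250 bases before the annotated start of a transcript, were at hand for 28 of the 34 genes. They were searched on both strands for the C/EBP-ATF element, spelled TGATGNAAN (NTTNCATCA on the other strand). It occurred in the windows of 8 of the 28 genes, namely AARS1, CARS1, GARS1, IARS1, MARS1, NARS1, TARS1 and YARS2. By compartment these were 6 of 14 genes for cytosolic enzymes, 1 of 2 for both and 1 of 12 for mitochondrial enzymes. Counted over windows, 22.9% of the 35 synthetase windows held a match, against 3.61% of all 35116 windows in the table. A match is a description of the letters and not a site of binding. The windows of MARS1 and NARS2, which belong to a cytosolic and a mitochondrial gene that were higher with leflunomide on LEF25 replicates 1 and 2, are shown up to 30 bases past the start, with the match in capitals. MARS1 lies at chr12:57487818-57488097 on the plus strand, and its match spans the start. NARS2 lies at chr11:78574835-78575114 on the minus strand and has no match.
MARS1: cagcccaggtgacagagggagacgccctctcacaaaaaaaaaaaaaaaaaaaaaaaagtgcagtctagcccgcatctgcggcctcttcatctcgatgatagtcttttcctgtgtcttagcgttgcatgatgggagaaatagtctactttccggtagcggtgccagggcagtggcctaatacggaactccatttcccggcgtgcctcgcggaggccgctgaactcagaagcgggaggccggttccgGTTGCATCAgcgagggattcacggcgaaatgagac
NARS2: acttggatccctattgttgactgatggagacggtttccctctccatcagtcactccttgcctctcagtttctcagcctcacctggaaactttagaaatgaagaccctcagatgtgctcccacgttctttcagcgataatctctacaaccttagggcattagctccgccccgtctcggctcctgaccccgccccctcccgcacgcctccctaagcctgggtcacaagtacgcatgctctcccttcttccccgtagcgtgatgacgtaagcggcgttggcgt

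The matches in 6 other genes are shown with the bases around them, because they show how alike the element is between genes of the family. The stretches are chr16:70289640-70289740 (minus strand) for AARS1, chr11:3057394-3057472 (minus) for CARS1, chr7:30594798-30594898 (plus) for GARS1, chr9:92293668-92293757 (minus) for IARS1, chr18:57621807-57621868 (minus) for NARS1 and chr5:33440920-33440994 (plus) for TARS1. Capitals mark the element. AARS1, CARS1, IARS1 and MARS1 held the same 9 letters, and NARS1 held them on the opposite strand.
AARS1: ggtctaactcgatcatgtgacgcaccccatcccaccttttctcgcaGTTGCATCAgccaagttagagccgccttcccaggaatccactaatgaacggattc
CARS1: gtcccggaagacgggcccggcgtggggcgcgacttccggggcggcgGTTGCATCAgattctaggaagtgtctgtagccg
GARS1: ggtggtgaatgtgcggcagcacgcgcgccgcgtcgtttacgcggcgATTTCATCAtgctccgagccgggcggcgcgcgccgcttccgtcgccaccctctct
IARS1: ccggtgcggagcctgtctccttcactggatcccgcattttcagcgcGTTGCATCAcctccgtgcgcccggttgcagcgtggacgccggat
NARS1: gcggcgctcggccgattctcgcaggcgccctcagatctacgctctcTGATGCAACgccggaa
TARS1: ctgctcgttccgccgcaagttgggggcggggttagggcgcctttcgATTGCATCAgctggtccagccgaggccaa

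The cytosolic and mitochondrial histidyl enzymes are encoded back to back. Their transcripts start at chr5:140691370 (HARS1) and chr5:140691455 (HARS2) and run in opposite directions, with 84 bases between the start sites. The stretch chr5:140691351-140691474 is given on the plus strand, the strand of HARS2, with those 84 bases in capitals. It is shown because the signal of HARS1, but not of HARS2, was under the negative control mean of LEF25 replicate 3. Any part of this stretch in that difference was not tested.
HARS1 and HARS2: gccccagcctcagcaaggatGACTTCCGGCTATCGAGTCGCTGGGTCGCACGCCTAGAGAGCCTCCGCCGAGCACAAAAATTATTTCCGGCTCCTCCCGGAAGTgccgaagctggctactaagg

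One array, LEF25 replicate 3, was unlike the other 5. Its mean signal was 128.9, against 261.7 and 343.1 on LEF25 replicates 1 and 2 and 317.7 to 370.5 on the DMSO arrays. Its log2 values correlated with those of the other arrays at r = 0.890 to 0.902, while the other 5 correlated among themselves at 0.988 to 0.997. Rows above background (detection p-value under 0.05) numbered 11816 on it and 13235 to 14020 on the others. The 9 melanocyte lineage markers summed to 2.20 to 4.62 times the signal of as many negative controls on the LEF25 arrays. On the DMSO arrays they summed to 4.65 to 5.59 times. All marker sums are of raw signal, not normalized between arrays, and SOX10 gave 1719 of 2376 units on DMSO replicate 1. Without LEF25 replicate 3, PMEL was called lower (-1.32, limma adjusted p = 8.0e-06). SOX10 (-0.17, limma adjusted p = 0.31) and S100A1 (-0.20, adjusted p = 0.19) were not called. By their deposited p-values, SOX10 and S100A1 were detected on all 6 arrays, PMEL on 1 LEF25 and 3 DMSO arrays, and MITF on 1 LEF25 array. MLANA, TYR, DCT, TYRP1 and S100B were detected on none. MITF read 97, 119 and 50 signal units on the LEF25 arrays and 120, 131 and 109 on the DMSO arrays, each above PMEL on the same array. The 11 markers of keratinocytes, fibroblasts, leukocytes and endothelium summed to 1.15 to 1.25 times the signal of as many negative controls on the LEF25 arrays and to 1.34 to 1.44 times on the DMSO arrays, and KRT5, COL3A1, PTPRC, CD3E and CDH5 were detected on none. In the fit without LEF25 replicate 3, 3 of the 5 of them that were tested (KRT14, DCN and LUM) were called lower by limma and 0 higher. Of all genes, 9.94% were called lower and 9.33% higher. The median log2 change was -0.60 over the 5. CD14 (0.24) and PECAM1 (0.12) had positive changes and were not called. COL1A1, detected on 2 LEF25 arrays alone, was not tested. It read 4.81, 4.93 and 4.69 on the LEF25 arrays, against 4.64, 4.67 and 4.64 on the DMSO arrays. The part of these markers in the results was not tested. In bulk RNA of this kind, fewer cells of a type and less RNA per cell cannot be told apart.

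None of the synthetase genes described was called when all 6 arrays were used, and 3 were called, all higher with leflunomide, when LEF25 replicate 3 was left out. The 3 were YARS1 and MARS1 of the cytosol and NARS2 of the mitochondrion, and each was 1.33-fold to 1.34-fold higher. A gene is called at an adjusted p under 0.05 in limma's linear model, with Benjamini-Hochberg adjustment over all 12345 genes tested, and changes are leflunomide minus DMSO on normalized log2 intensity. Of the 34 genes, 33 were tested. IARS1, the isoleucyl enzyme of the complex, was detected on 2 of 6 arrays by its deposited p-values and did not pass the detection filter. With 6 arrays, 0 of 33 genes were called, beside 1.07% of all genes (0.235% higher and 0.834% lower), and 3 (9.09%) had an unadjusted p under 0.05, beside 16.9% of all genes. With 5 arrays, 3 of 33 (9.09%) were called higher and 0 lower, beside 19.3% of all genes called (9.33% higher and 9.94% lower). The share of higher calls among the synthetase genes was thus near that of all genes, and it says nothing particular about the family. The 3 calls were lost when LEF25 replicate 1 or replicate 2 was also left out, with 1 LEF25 array remaining and changes of 0.35 to 0.48. They were also lost when arrays were scaled to a common median, where the 737 calls over all genes split into 31 higher and 706 lower. That median was taken over all rows, detected or not, and 30.9% to 36.6% of rows were detected on each array.

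**Figure D1:**
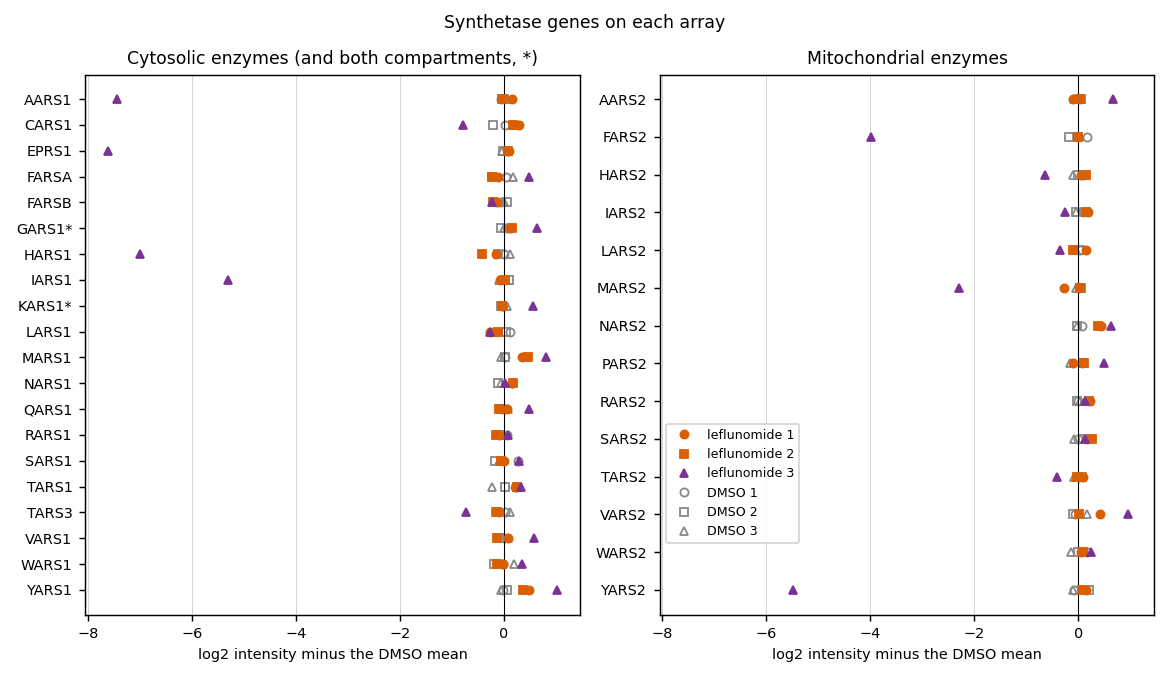
Normalized log2 intensity of each of the 34 genes on each array, minus the mean of the 3 DMSO arrays, with cytosolic genes (and GARS1 and KARS1, marked by asterisks) on the left and mitochondrial genes on the right. Filled symbols are leflunomide arrays (purple triangles, replicate 3) and open symbols DMSO arrays. Replicate 3 lies far below all other arrays for AARS1, EPRS1, HARS1, IARS1, YARS2, FARS2 and MARS2, while most other points lie close to 0.

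YARS1, which encodes the tyrosyl-tRNA synthetase of the cytosol, had normalized log2 intensities of 11.60, 11.48 and 12.14 on LEF25 replicates 1 to 3, against 11.10, 11.19 and 11.07 on the DMSO arrays. All LEF25 arrays lay above all DMSO arrays, and replicate 3 was the highest. The change was 0.42 (SE 0.10, 95% interval 0.21 to 0.64, limma adjusted p = 0.011) without LEF25 replicate 3 and 0.63 (adjusted p = 0.18) with it. When the 6 arrays were scaled to a common median, which moved the median of all genes to -0.53, the change of YARS1 was 0.02. MARS1, the methionyl enzyme of the multi-synthetase complex, which also charges the initiator tRNA, stood at 9.15, 9.26 and 9.61 with leflunomide, against 8.83, 8.82 and 8.75 with DMSO. Here too the groups did not overlap on any array. The change was 0.41 (SE 0.10, 95% interval 0.19 to 0.62, limma adjusted p = 0.013) without replicate 3 and 0.54 (adjusted p = 0.14) with all 6 arrays, and -0.19 under that scaling, above the -0.53 of all genes.

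NARS2, the mitochondrial asparaginyl-tRNA synthetase, had values of 7.65, 7.60 and 7.85 with leflunomide, against 7.28, 7.20 and 7.19 with DMSO. As for YARS1 and MARS1, every LEF25 array lay above every DMSO array. Its change was 0.42 (SE 0.10, 95% interval 0.20 to 0.63, limma adjusted p = 0.011) without LEF25 replicate 3 and 0.48 (adjusted p = 0.11) with 6 arrays, where median scaling gave -0.24 beside the -0.53 of all genes. Background correction with control parameters from all rows gave a smaller change, 0.15 without LEF25 replicate 3 (adjusted p = 0.032) and 0.16 with it (adjusted p = 0.098).

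**Figure D2:**
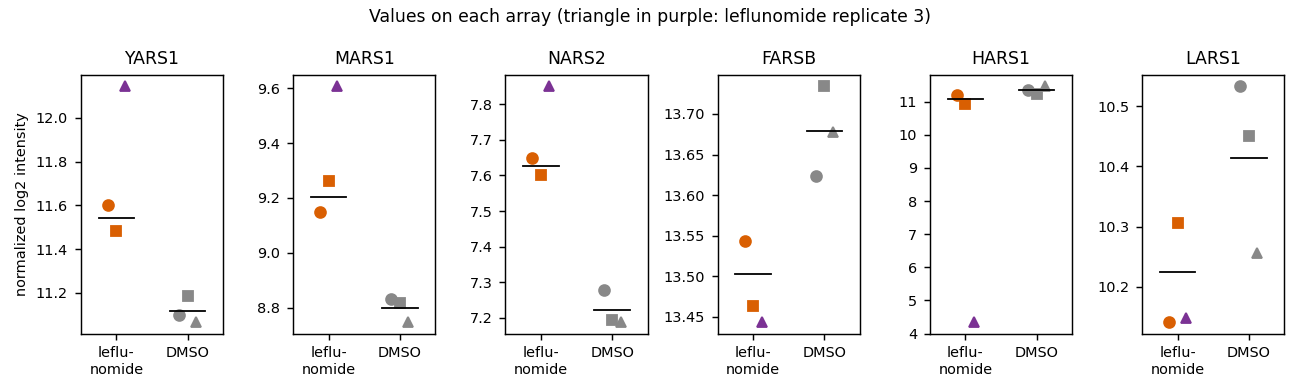
Normalized log2 intensity on each array for the 3 genes called without leflunomide replicate 3 and for FARSB, HARS1 and LARS1, with leflunomide on the left and DMSO on the right of each panel and a separate intensity axis per gene. Lines are the means of leflunomide replicates 1 and 2 and of the 3 DMSO arrays. For YARS1, MARS1 and NARS2 all leflunomide points lie above the DMSO points, and for HARS1 replicate 3 lies near 4.35.

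The 3 largest decreases among the tested synthetase genes without LEF25 replicate 3 were in HARS1, LARS1 and FARSB, and none passed the threshold. HARS1, the histidyl enzyme of the cytosol, read 11.20, 10.93 and 4.35 on the LEF25 arrays, against 11.35, 11.23 and 11.46 on the DMSO arrays. All 3 LEF25 arrays lay below the DMSO arrays, replicate 3 by far the most. The difference was -0.28 (SE 0.11, 95% interval -0.53 to -0.03, limma adjusted p = 0.11) without that array and -2.52 (adjusted p = 0.52) with it. LARS1 encodes the leucyl enzyme of the complex, which is also known as a leucine sensor upstream of mTORC1. It read 10.14, 10.31 and 10.15 with leflunomide, against 10.53, 10.45 and 10.26 with DMSO. LEF25 replicate 2 lay above DMSO replicate 3, so the groups overlapped, and the difference was -0.19 (SE 0.11, limma adjusted p = 0.28). FARSB, the beta subunit of the phenylalanyl enzyme, read 13.54, 13.46 and 13.44 with leflunomide, against 13.62, 13.73 and 13.68 with DMSO. All LEF25 values lay below all DMSO values, by a mean of 0.17 without replicate 3 (limma adjusted p = 0.25).

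Over the 33 tested genes of the family without LEF25 replicate 3, changes ran from -0.28 to 0.42, and no synthetase gene changed by more than 0.5 on the log2 scale, while 8.51% of all genes did. The 95% interval crossed 0 for 28 of the 33 genes and lay within 0.5 on both sides for 27. The intervals were 0.42 to 0.58 wide. LEF25 replicates 1 and 2 lay wholly above the DMSO arrays for 10 genes and wholly below for 3, together 39.4% of the family, beside 48.4% of all genes in that comparison. The 10 were YARS1, MARS1, EPRS1, NARS1 and TARS1 of the cytosol, GARS1 of both compartments, and IARS2, NARS2, RARS2 and SARS2 of the mitochondrion. The 3 were FARSB, HARS1 and RARS1, all cytosolic. With all 6 arrays the groups were apart for 27.3% of the family and 29.8% of all genes.

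**Figure D3:**
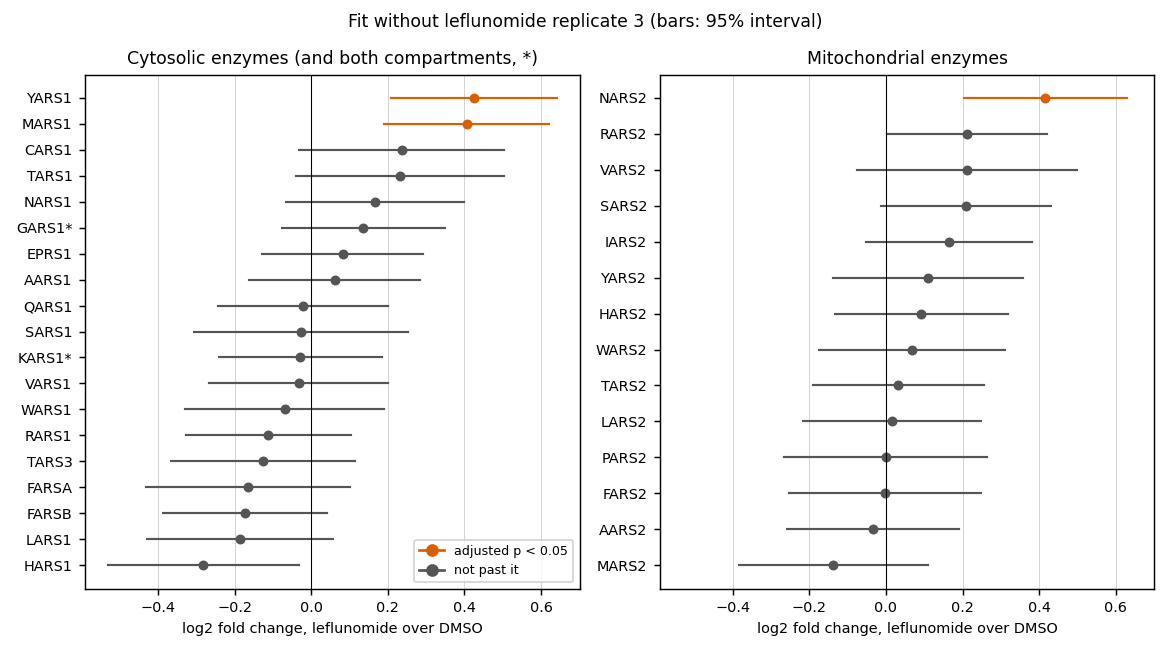
Log2 fold change, leflunomide over DMSO, of the 33 tested genes in the fit without leflunomide replicate 3, with bars for the 95% interval. Orange marks an adjusted p under 0.05 over all 12345 genes. The 3 orange points lie between 0.41 and 0.42, and 28 bars cross 0.

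Among the cytosolic genes, 2 of 17 were called higher without LEF25 replicate 3 and 0 lower, 7 had a positive and 10 a negative change, and the median change was -0.03. Of all genes, 9.33% were called higher and 9.94% lower, and 51.1% had a positive change. The 6 tested genes whose enzymes sit in the multi-synthetase complex (KARS1 among them) had a median of -0.03 with 1 called (MARS1), and the 12 other tested genes of the cytosol alone had a median of -0.03 with 1 called (YARS1). GARS1, the glycyl enzyme, and KARS1, the lysyl enzyme, each serve both compartments from 1 gene, and neither was called, with changes of 0.14 and -0.03. Among the mitochondrial genes, 1 of 14 was called higher and 0 lower, 10 had a positive and 4 a negative change, and the median was 0.08. The median over all 12345 genes was 0.01. Grouped by the catalytic fold, the 15 tested class I genes had a median of 0.07 and the 17 class II genes of -0.00, with 2 class I genes and 1 class II gene called. With all 6 arrays the medians were 0.05 for the cytosolic and 0.07 for the mitochondrial genes, beside -0.00 for all genes, and the cytosolic median was -0.06 when DMSO replicate 2 was left out. The medians also took their sign from the scaling: with 5 arrays scaled to a common median they were -0.23 for the cytosolic and -0.17 for the mitochondrial genes, where the median of all genes was -0.19.

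Array by array and against the DMSO mean, the median of the mitochondrial genes was 0.12, 0.08 and -0.07 on LEF25 replicates 1 to 3, and 0.03, 0.01 and -0.06 on the DMSO arrays. That of the cytosolic genes was 0.03, -0.07 and 0.06 on the LEF25 arrays, and 0.02, -0.06 and 0.00 on the DMSO arrays. The mitochondrial median was above the DMSO arrays on LEF25 replicates 1 and 2 and below them on replicate 3. The cytosolic median lay on both sides of the DMSO arrays, lowest on LEF25 replicate 2 and highest on replicate 3.

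Set side by side for the same amino acid, the mitochondrial and cytosolic enzymes gave 15 pairs with both genes tested, some genes standing in more than 1 pair. The change of the mitochondrial gene was above that of the cytosolic gene in 10 pairs and below it in 5, with a median difference of 0.16. Histidine had HARS2 at 0.09 and HARS1 at -0.28, and arginine had RARS2 at 0.21 and RARS1 at -0.11. The order ran the other way most clearly for methionine, with MARS2 at -0.14 and MARS1 at 0.41, and for tyrosine, with YARS2 at 0.11 and YARS1 at 0.42. The difference between compartments was not tested, since genes are not replicates of a condition.

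**Figure D4:**
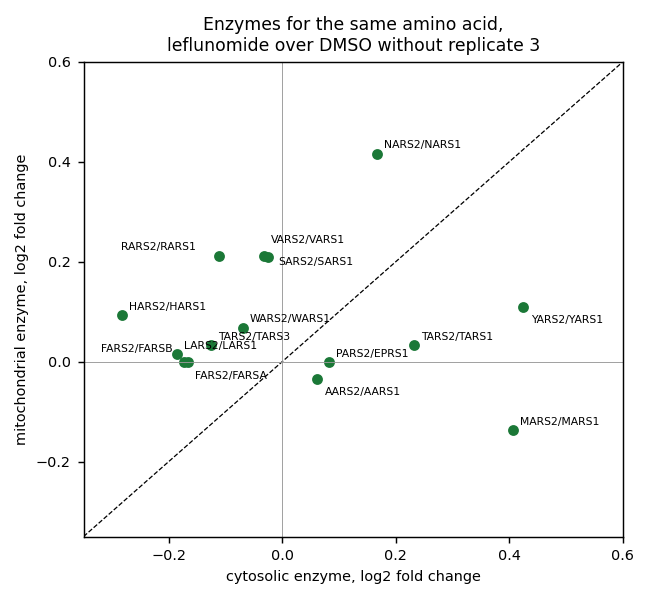
Log2 fold change, leflunomide over DMSO without leflunomide replicate 3, of the mitochondrial enzyme (vertical axis) against the cytosolic enzyme (horizontal axis) for the same amino acid, 1 point per pair of genes. The dashed line marks equal change. Of the 15 points, 10 lie above the line, and MARS2 with MARS1 lies farthest below it.

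On LEF25 replicate 3, 5 of the 34 synthetase genes lay over 4 log2 units under LEF25 replicates 1 and 2. They were AARS1, EPRS1, HARS1 and IARS1 of the cytosol and YARS2 of the mitochondrion, 14.7% of the family beside 1.65% of all genes tested. AARS1, the alanyl enzyme, read 11.96, 11.78 and 4.38 on the LEF25 arrays, against 11.76, 11.80 and 11.87 on the DMSO arrays. EPRS1, the joint glutamyl-prolyl enzyme of the complex, read 12.06, 12.05 and 4.36 with leflunomide, against 12.02, 11.95 and 11.94 with DMSO. On LEF25 replicates 1 and 2 both genes stood at or close to their DMSO values, and on replicate 3 both were at the low end of the scale. IARS1 read 9.59, 9.70 and 4.37 with leflunomide, against 9.67, 9.77 and 9.57 with DMSO. YARS2, the mitochondrial tyrosyl enzyme, read 9.98, 9.91 and 4.35 with leflunomide, against 9.75, 10.03 and 9.73 with DMSO. In all 4 of these genes replicate 3 lay far below every other array.

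In raw signal units, LEF25 replicate 3 gave 23.1 for AARS1, 15.6 for EPRS1, 14.6 for HARS1, 19.5 for IARS1 and 13.6 for YARS2. All 5 signals were under the negative control mean of that array, 36.8 (SD 6.52), while the same array gave 2948 for QARS1, 2639 for RARS1 and 374 for HARS2, whose promoter lies next to that of HARS1. FARS2, the mitochondrial phenylalanyl enzyme, was just outside the limit, with a drop of 3.98 and a signal of 10.6. Brightness was compared as well. Among genes brighter than 1000 signal units on LEF25 replicates 1 and 2 and on all DMSO arrays, 3 of 14 synthetase genes and 5.02% of 1694 genes in all lay over 4 log2 units lower on replicate 3. Without regard to brightness, loss of detection was about as frequent in the family as elsewhere. Of the genes detected on the other 5 arrays, 7 of 33 synthetase genes (21.2%) were not detected on replicate 3, beside 19.7% of 10617 genes. The 7 were AARS1, EPRS1, FARS2, HARS1, MARS2, TARS3 and YARS2. Among those brighter than 1000 signal units on the other 5 arrays, the loss was more frequent in the family. It befell 3 of 14 synthetase genes (21.4%), beside 8.84% of 1663 genes. With all 6 arrays the fitted changes of AARS1 (-2.44), EPRS1 (-2.48), HARS1 (-2.52), YARS2 (-1.76) and FARS2 (-1.33) rested on this 1 array, and without it they were 0.06, 0.08, -0.28, 0.11 and -0.00. Adjusted p-values with 6 arrays were 0.52 to 0.57 (limma).

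Of 7 tested genes with a C/EBP-ATF match in their promoter window, all 7 had a positive change without LEF25 replicate 3. Their changes ran from 0.06 to 0.41 with a median of 0.17, and 1 (MARS1) was called. Of all genes, 51.1% had a positive change and 9.33% were called higher. IARS1 also held a match but did not pass the detection filter, and its difference between the same arrays was -0.02. With all 6 arrays 4 of the 7 were positive and 3 negative (AARS1, CARS1 and YARS2), with a median of 0.12. Of 20 tested genes with a window but no match, 9 had a positive change, the median was -0.00, and 1 (NARS2) was called. YARS1 had no window in the table. This is a description of genes grouped after their changes were known, with no test. Other motifs were spread otherwise. CCAAT, on either strand, occurred in 48.6% of the 35 synthetase windows (14 of 28 genes), beside 34.6% of all windows. The E-box, CACGTG on both strands, occurred in 5.71% of the synthetase windows (IARS1 and MARS2), beside 7.26% of all windows.

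Of the genes that act with the synthetases, those tested were not called in either fit. The list held 21 genes, of which 16 were tested: AIMP2, a scaffold of the complex, editing and tRNA-processing genes, the genes of mitochondrial glutaminyl-tRNA formation and of selenocysteinyl-tRNA, and the elongation factors that carry charged tRNA to the ribosome. None of the 16 passed the threshold with limma, with 3 (18.8%) at an unadjusted p under 0.05 over 6 arrays and 4 (25%) over 5 arrays, beside 16.9% and 32.9% of all genes. Their median change over 5 arrays was -0.06. The largest differences without LEF25 replicate 3 were in PSTK, DTD2 and AIMP2. PSTK, the kinase that makes phosphoseryl-tRNA on the way to selenocysteine, differed by -0.36 (SE 0.13, limma adjusted p = 0.061). DTD2, which removes wrongly attached amino acids, differed by -0.30 (adjusted p = 0.13), and AIMP2 by -0.27 (adjusted p = 0.11). EEF1A1, the main elongation factor, was named after its value was seen and differed by -0.02 (adjusted p = 0.92). Of the genes not tested, DTD1 had no row of its own, and AIMP1, EEF1E1, MTFMT and EEF1D did not pass the detection filter. EEF1E1, also named after its values were seen, read 9.13, 9.06 and 8.95 with leflunomide, against 8.64, 8.93 and 8.76 with DMSO. Its LEF25 arrays all lay above its DMSO arrays, while the groups of AIMP1, MTFMT and EEF1D overlapped.

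Genes of the response to amino acid shortage changed in both directions. Of 34 such genes, 28 were tested, and without LEF25 replicate 3 there were 8 higher and 3 lower (39.3%, beside 19.3% of all genes), with a median of 0.12. CBS, which makes cystathionine from homocysteine and serine, rose by 1.09, PHGDH, the entry enzyme of serine synthesis, rose by 0.67, and DDIT4, an inhibitor of mTORC1, rose by 0.66 (limma adjusted p = 2.1e-05, 0.00082 and 0.0053). PPP1R15A, a phosphatase subunit that restores translation after stress, fell by 1.22 (adjusted p = 8.0e-06), DDIT3, a stress-induced transcription factor, fell by 1.15 (4.1e-05), and SESN2, a stress-induced regulator of mTORC1, fell by 1.07 (0.00018). The 5 other genes that rose, named after their values were seen, were SLC38A2 (0.59) and SLC7A1 (0.46), both amino acid transporters, ASNS (0.53), the asparagine synthetase that is no tRNA enzyme, ATF4 itself (0.50) and ALDH1L2 (0.39), of mitochondrial folate metabolism.

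With all 6 arrays, 1 gene of this list was higher (CBS, 1.24, limma adjusted p = 0.047) and 2 were lower (PPP1R15A, -1.22, adjusted p = 0.010, and SESN2, -0.97, adjusted p = 0.041), beside 0.235% and 0.834% of all genes. ATF3, a stress-induced transcription factor of the list, did not pass the detection filter by its deposited p-values and was not tested. Its raw signal was 425, 459 and 347 on the DMSO arrays, where the negative control means were 56.8 to 59.1. ATF3 is named after its values were seen. It read 5.06, 5.27 and 4.56 on the LEF25 arrays, against 8.28, 8.09 and 7.97 on the DMSO arrays, with every LEF25 array below every DMSO array. PSAT1 and PYCR1 were not tested either and lay the other way, every LEF25 array above every DMSO array. PSAT1 read 9.93, 9.89 and 10.08 with leflunomide, against 9.66, 9.59 and 9.56 with DMSO. PYCR1 read 5.93, 5.96 and 6.57, against 5.52, 5.32 and 5.66. The remaining untested genes, CHAC1, NUPR1 and VLDLR, had overlapping groups. All were named after their values were seen. ATF4 read 11.03, 10.91 and 11.14 on the LEF25 arrays, against 10.54, 10.40 and 10.42 on the DMSO arrays. The groups did not overlap, and LEF25 replicate 3 was the highest. PHGDH read 12.30, 12.33 and 4.37 with leflunomide, against 11.56, 11.59 and 11.75 with DMSO, and so it too was at the low end of the scale on replicate 3 while higher on the other LEF25 arrays. With 5 arrays scaled to a common median, 1 of the 28 tested genes of the list was called higher and 3 lower. Of all 12345 genes, 31 were called higher and 706 lower under that scaling.

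**Figure D5:**
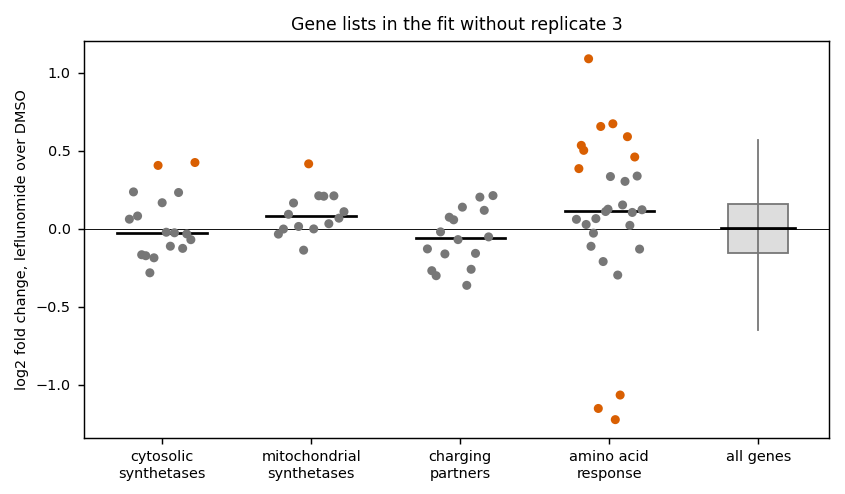
Log2 fold change, leflunomide over DMSO without leflunomide replicate 3, of each tested gene of the cytosolic and mitochondrial synthetases, of the partner genes of tRNA charging and of the amino acid response genes, with a line at the median. Orange marks an adjusted p under 0.05, and the box for all 12345 genes spans the quartiles, with a line from the lowest to the highest 2.5%. The synthetase and partner genes lie between -0.36 and 0.42, while the tested amino acid response genes reach -1.22 and 1.09.

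For 2 genes the file held another row that was not used. A row named FARSB read 69.5, 73.8 and 51.9 signal units with leflunomide, against 76.9, 80.0 and 78.3 with DMSO, while the row under the older name FARSLB read 12026, 14068 and 5281, against 14919, 17309 and 14617. The brighter row was taken for FARSB. A row named HARS2 read 9.44, 9.84 and 9.42 on the normalized log2 scale with leflunomide, against 9.66, 9.25 and 9.52 with DMSO, with overlapping groups. The row under the older name HARSL was brighter and was taken for HARS2. HARS2 was also once a name of DTD1, so that the row named HARS2 may measure either gene. Among the rows used, GARS, MARS, QARS and SARS are also synonyms of other genes (GART, SLA2, EPRS1 and SARS2, in that order). They were taken as GARS1, MARS1, QARS1 and SARS1.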

How the data were processed

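The 6 arrays were analysed, 3 from leflunomide-treated and 3 from DMSO-treated A375 cells, grouped by their labels. The authors deposited linear mean bead intensity per gene with no normalization across arrays, per the file headers. The submitters' processing notes name GenomeStudio, and its version is not given in the sources used here. Beside each intensity the authors deposited a detection p-value against the negative controls of the array. For 32290 rows, and 32 of the 36 synthetase rows described, it was a rank among 759 controls within a tolerance of 0.001, and for the others it was not, as for CARS1, IARS1, MARS2 and VARS1.

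Intensities were background-corrected with the normexp model in limma 3.58.1 (R 4.3.3), with control parameters from the rows with ranks and an offset of 16, and quantile-normalized. The offset understates the change of dim genes. A row was tested if 3 or more of the 6 arrays had a detection p-value under 0.05. Names were brought up to date with the RefSeq table of GRCh38.p14, and the brightest row of a gene was taken, leaving 12345 genes. Groups were compared with limma's linear model and empirical Bayes moderation, with Benjamini-Hochberg adjustment over these genes, on 6 arrays and, after new normalization, on the 5 without LEF25 replicate 3. Values per array are those normalized over 6 arrays. The fit was tested on simulated data, with the spread taken from the arrays other than LEF25 replicate 3. No array like that one was simulated, so the simulation does not cover its effect. The number of arrays limits the precision.

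Of the genes found by name, 2 are not reported here and stand in no count of synthetase genes. The members and gene lists were chosen with earlier results of these data known. Values on every array are given for synthetase genes called in either fit, for the 3 largest changes in each direction without LEF25 replicate 3, and for genes over 4 log2 units lower on that array. Of the other lists, called genes (up to 6) and the 3 largest changes are named. Alternatives covered normalization, background correction, offset, detection filter, variance model, a replicate block and each array left out. All except the block were applied to the 5 arrays after the data were seen. The second deposited table, of intensity per probe, has no gene names and was not used.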

Additional observations from a re-analysis of the deposited data

How the results depend on the processing

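With 6 arrays, leaving out 1 array at a time gave 3 to 2379 calls over all genes, 0 to 3 synthetase calls, 0 to 2 cytosolic, 0 to 1 mitochondrial and 0 to 11 amino acid response calls, the upper ends all without LEF25 replicate 3. It gave changes of -3.73 to 0.062 for AARS1, -3.77 to 0.082 for EPRS1 and -2.71 to 0.11 for YARS2, and a cytosolic median of -0.060 (without DMSO replicate 2) to 0.11. Array quality weights gave 2549 calls over all genes, 3 synthetase calls (2 cytosolic, 1 mitochondrial), 1 partner and 10 amino acid response calls, a cytosolic median of -0.045 and 0.048 for YARS2. Scaling to a common median gave 0 calls over all genes and 0 of the amino acid response, medians of -0.62 (cytosolic) and -0.59 (mitochondrial) beside -0.53 for all genes, and 0.021 for YARS1, -0.19 for MARS1 and -0.24 for NARS2. Cyclic loess gave 323 calls over all genes. The amino acid response count was 1 without background correction, with control parameters from all rows or with an offset of 50, and the mitochondrial median was 0.18 with a detection p-value under 0.01 on all 6 arrays. The cause was not tested.

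Without LEF25 replicate 3, leaving out another array gave 802 to 2771 calls over all genes, 0 to 3 synthetase calls (0 without LEF25 replicate 1 or 2), 0 to 2 cytosolic, 0 to 1 mitochondrial, 0 to 2 partner and 6 to 12 amino acid response calls, a mitochondrial median of 0.024 to 0.12 and a cytosolic median of -0.097 to 0.053, positive without LEF25 replicate 2 or DMSO replicate 3. These fits can leave 1 LEF25 array, which is then assumed to vary like the DMSO arrays. Median scaling gave 737 calls over all genes, 0 synthetase calls (0 cytosolic, 0 mitochondrial), 4 amino acid response calls, and medians of -0.23 (cytosolic) and -0.17 (mitochondrial), with YARS1 at 0.23, MARS1 at 0.14 and NARS2 at 0.14. Control parameters from all rows gave 685 calls over all genes, 2 mitochondrial calls, 6 of the amino acid response and 0.15 for NARS2. A detection p-value under 0.01 on all 6 arrays gave a mitochondrial median of 0.17 and 1 partner call, and array weights gave 1 partner call.

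The replicate numbers were not taken to pair the samples in the main fits. Deviations of same-numbered arrays from their group means correlated at -0.01, 0.21 and 0.22, and not every array correlated best with its own number. With 3 arrays in each group and LEF25 replicate 3 unlike the others, these values cannot decide whether the arrays are paired. With the replicate block, 6 arrays gave 4 calls over all genes, 0 synthetase and 0 amino acid response calls. With the block and without LEF25 replicate 3 there were 2131 calls over all genes, 3 synthetase calls, 1 of them mitochondrial, 2 partner calls, and medians of 0.017 (cytosolic) and 0.023 (mitochondrial). The series matrix alternative was not run, since no table used here pairs its probes with genes. Of 212 recomputed changes of named genes, 191 kept their direction and their side of the threshold, 15 kept only their direction and 6 turned. Of 186 counts of calls, 135 stayed within 1.5 times, and of 62 compartment medians, 10 moved by more than the spread between arrays and 10 changed sign.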
